A study of Mus musculus with 2 samples.

Results

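Precursor exhausted CD8 T cells were examined among T cells taken from B16F10 melanoma, a transplantable mouse skin tumour line grown under the skin. They were taken as barcodes that passed the quality filter (at least 500 genes and at most 25% mitochondrial counts), held 5 or more counts of Cd8a or Cd8b1, under 5 of Cd4, Csf1r and Adgre1 and under 10 of Mlana, and had 5 or more counts of Tcf7, 5 or more of Pdcd1 and under 5 of Havcr2. The rule found 151 barcodes among 11318 that passed the filter, which is 1.33% (exact 95% binomial interval 1.13 to 1.56). They made up 3.66% of the 4131 CD8 barcodes, 7.73% (6.58 to 9) of the 1954 CD8 barcodes with Pdcd1 and 20.5% (17.6 to 23.6) of the 738 with Tcf7. A further 21 barcodes with Tcf7 and Pdcd1 also held Havcr2 and were left out by the rule. The cells came from tumours collected 14 days after transplantation and were selected for CD3, the signalling part of the T cell receptor. Wild-type (WT) cells and Nr4a knockout (KO) cells were labelled with hashtag antibodies, pooled and captured together in 1 run with about 20000 cells loaded. The labels list 6 hashtags without saying which marks which genotype, and the Nr4a genes deleted, the cells they were deleted in and the number of mice are not given in the sources used here. Every gate below therefore pools barcodes regardless of genotype, the hashtag groups are of unknown genotype, and no comparison of genotypes was made.

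TCF1, the protein of Tcf7, is a transcription factor that T cells need to persist and self-renew. In tumours and chronic infection, CD8 T cells that keep TCF1 while carrying the inhibitory receptor PD-1, the product of Pdcd1, form a reservoir that divides and gives rise to terminally exhausted cells, which lose TCF1, gain the inhibitory receptor TIM-3 (Havcr2) and carry cytotoxic granules. NR4A proteins are nuclear receptors induced by T cell receptor signalling and, like the factor TOX, are linked to the exhaustion programme. The members were therefore set beside CD8 barcodes with Pdcd1 and Havcr2 but no Tcf7 (825 barcodes, here the Havcr2-positive gate), and also beside CD8 barcodes with Tcf7 but neither receptor gene (554, the Tcf7-only gate) and with Pdcd1 but neither of the others (957, the Pdcd1-only gate).

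All values come from 1 mRNA library, so no difference between gates has a replicate check, and none was tested. A gene is called present at 5 or more counts, since most non-zero deposited counts exceed 5. Levels are CPM, a barcode's counts of a gene scaled to a common total, averaged over the barcodes of a gate. Differences are log2 ratios of mean CPM after adding 5 CPM, and a gene counts as higher or lower when it differed at least 2-fold. Members had a median of 46650 counts (8584 to 184882), against 51759 in the Havcr2-positive gate, 21732.5 in the Tcf7-only gate and 33363 in the Pdcd1-only gate. For a comparison across depths, each barcode was also thinned to 10000 counts, with presence at 2 or more, which left out 1 member. Of the 12016 mRNA barcodes, 11808 also occurred in the hashtag table. Melanoma barcodes (1146, chosen by Mlana and Dct) and macrophage barcodes (323, chosen by Csf1r and Adgre1), neither with Cd8a or Cd8b1, show the level of stray counts. Tcf7 was present in 5.06% of the former and 2.79% of the latter, and Pdcd1 in 1.13% and 2.48%, at medians of 156734.5 and 64781 counts. Intervals take barcodes as units and cover counting error only, because there is 1 library and no replicate. Reads of the same molecule are also not independent.

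The values of the genes that chose the members are given as a description. Tcf7 ranged from 50.8 to 3299 CPM in the members (median 526) and Pdcd1 from 62.6 to 2420 CPM (median 377). Just inside the Tcf7 limit, 13 members held 5 or 6 counts, and just outside it 20 otherwise eligible barcodes held 3 or 4, while 76 members held 20 or more. For Pdcd1, 16 members held 5 or 6 counts and 26 barcodes lay just below. Havcr2 had no count at all in 141 of the 151. Tcf7 was present in 13.6% (11.7 to 15.8) of the Pdcd1-positive barcodes without Havcr2 and in 2.48% (1.54 to 3.77) of those with it. Read the other way, Pdcd1 was present in 21.4% of the Tcf7-positive barcodes without Havcr2 and in 43.4% of the barcodes with neither Tcf7 nor Havcr2.

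Tcf7 lies on mouse chromosome 11, from 52246527 to 52283383 on GRCm38, and is protein-coding. Because the series concerns NR4A proteins, RefSeq promoter windows (GRCm38.p6, 250 bases before to 50 after each start) were searched on both strands for AAAGGTCA, the site that an NR4A protein binds alone (NBRE). The window of a Tcf7 start inside the gene held a match, at position 238 from its 5′ end and on the opposite strand, and it is shown for that reason with the matching letters in capitals, which read as the reverse complement.
Tcf7, chr11:52282546-52282845, minus strand: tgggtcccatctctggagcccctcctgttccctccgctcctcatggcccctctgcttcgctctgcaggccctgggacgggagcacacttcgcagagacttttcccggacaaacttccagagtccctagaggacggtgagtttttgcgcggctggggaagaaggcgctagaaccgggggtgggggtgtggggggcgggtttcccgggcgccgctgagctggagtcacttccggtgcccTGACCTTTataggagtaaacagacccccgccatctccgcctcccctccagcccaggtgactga
The same letters occurred in 495 of 32851 windows (1.51%), and a match describes the letters of the window only. The window of another Tcf7 start and the windows of Pdcd1, Nr4a1, Nr4a2, Nr4a3, Lef1 and Myb held none. Nor did the windows of the genes named below as higher (0 of 9 found) or lower (0 of 12) than in the Havcr2-positive gate.

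The other markers of precursor exhausted cells followed the label in part. Slamf6 encodes LY108, a surface receptor that marks TCF1-positive exhausted cells. It was present in 40.4% of members (61 of 151, interval 32.5 to 48.7), in 18.6% of the Tcf7-only gate, in 6.48% of the Pdcd1-only gate and in 4.61% of the Havcr2-positive gate, against 0.611% of melanoma barcodes. After thinning these shares were 31.3%, 20.3%, 4.15% and 2.79%. Xcl1, a chemokine that draws cross-presenting dendritic cells, was present in 37.7% of members (57 of 151, interval 30.0 to 46.0), 13.7% of the Tcf7-only gate, 9.40% of the Pdcd1-only gate and 4.73% of the Havcr2-positive gate. The share of members with either gene was above that of the other 3 gates, with and without thinning. Tox, a factor required by exhausted cells, was present in 60.9% of members (52.7 to 68.8), 61.8% of the Pdcd1-only gate and 71.3% of the Havcr2-positive gate, but in 17.3% of the Tcf7-only gate. In Tox, therefore, members lay with the Pdcd1-positive gates. At least 2 of the 3 genes were present in 45% of members (36.9 to 53.3), 10.3% of the Pdcd1-only gate, 8.84% of the Tcf7-only gate and 6.91% of the Havcr2-positive gate, and after thinning in 32.7%, 6.55%, 11.5% and 3.52%. All 3 were present in 19 members and none in 28. Cxcr5, a follicle-homing receptor used as a precursor marker in chronic infection, was present in only 7 members (4.64%), and Id3, a transcriptional regulator of stem-like cells, in 2. The label held for the group but not for each barcode.

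**Figure D1:**
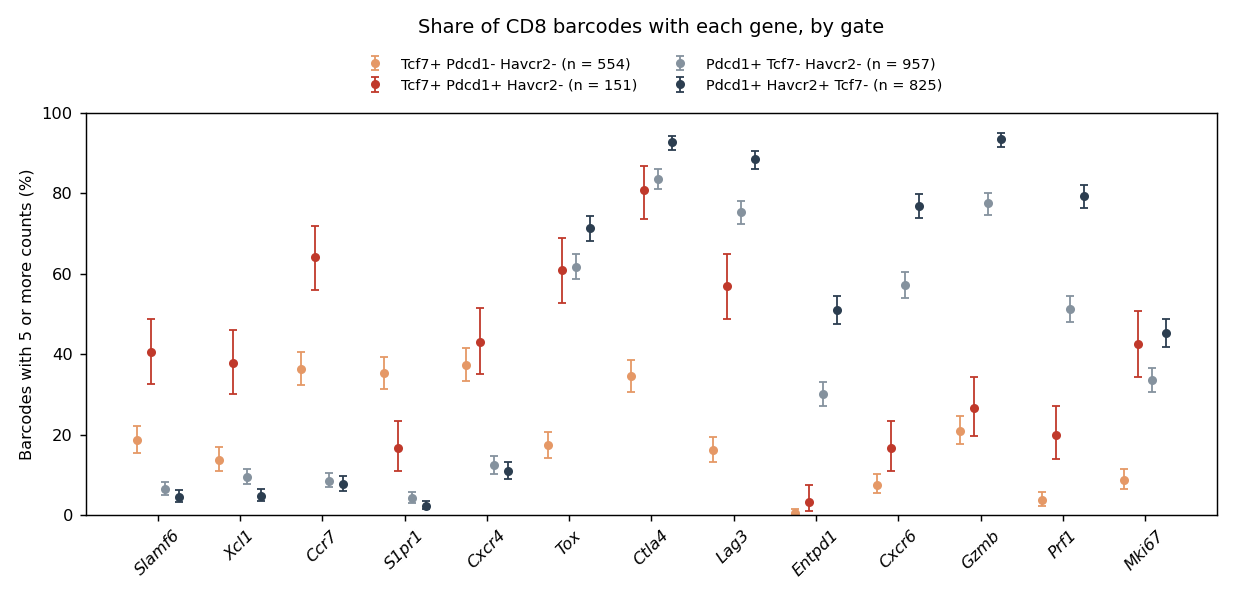
Share of CD8 barcodes with 5 or more counts of each of 13 genes (vertical axis, percent) in the 4 gates, with exact 95% binomial intervals that cover counting error only. Members (red) are above the other gates for Slamf6, Xcl1 and Ccr7, near the Pdcd1-positive gates for Tox and Ctla4, and near the Tcf7-only gate for Gzmb.

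Against the Havcr2-positive gate, members carried more of the genes of recirculation and of precursor cells and less of the granzymes, perforin and inflammatory chemokines. Among 6481 genes present in at least 5% of CD8 barcodes, gate genes left out, 157 were at least 2-fold higher in members (2.42%) and 186 lower (2.87%), 5.29% in all. The median log2 ratio over all of them was -0.03. The group of recirculation and quiescence genes had 7 of 10 examined higher and 0 lower, with a median log2 ratio of 1.88. The surface and secreted precursor genes had 7 of 12 higher and 0 lower (median 1.86). The cytotoxic genes had 2 of 14 higher and 6 lower (median -0.85), and the cytokines and chemokines 1 of 9 higher and 6 lower (median -2.37).

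**Figure D2:**
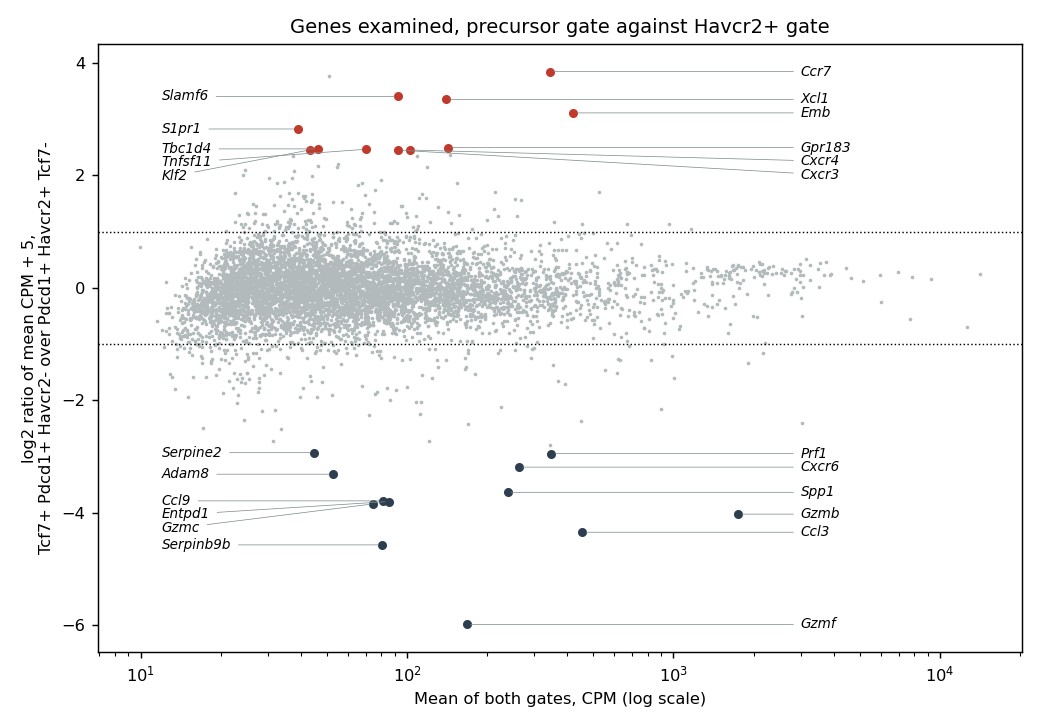
Each point is 1 of the 6481 genes examined, placed by its mean level in the members and the Havcr2-positive gate (horizontal axis, CPM, log scale) and by the log2 ratio of mean CPM + 5 (vertical axis). Dotted lines mark 2-fold, and the named genes run from Ccr7 at 3.84 to Gzmf at -5.99.

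Ccr7, the receptor that brings T cells into lymph nodes, had the highest ratio. It reached 646 CPM in members against 40.4 in the Havcr2-positive gate (log2 3.84). Across members it ran from 0 to 5006 CPM with a median of 247, and in the Havcr2-positive gate from 0 to 4062 CPM with a median of 0. The 2 groups overlapped, but Ccr7 was present in 97 members (64.2%, interval 56.0 to 71.9) and in 7.64% of the comparison barcodes, and after thinning in 56.7% and 5.47%. S1pr1, the receptor for the lipid that guides exit from tissue, was present in 25 members at 71.8 against 5.84 CPM (2.82), and Klf2, the factor that drives S1pr1, in 23 members at 76.5 against 9.90 CPM (2.45). Klf3, a relative of Klf2, stood at 2.01, but at -2.99 under A0305, and the integrin gene Itgb7 at 1.74. Ccr7 was thus present in most members, while S1pr1 and Klf2 were each present in under 17% of them. Itga4 (0.16) and Ly6c2 (0.07) were almost level. Dapl1 and Nsg2, which fell below the 5% limit and were not examined, were present in 50 and 25 members against 1.45% and 0.121% of the Havcr2-positive gate.

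Among surface and secreted precursor genes, Slamf6 averaged 173 CPM in members and 11.9 in the Havcr2-positive gate (log2 3.40). Single members ran from 0 to 1902 CPM (median 14.2) and the comparison barcodes from 0 to 1114 (median 0). Xcl1 averaged 259 against 20.9 CPM (3.35). Gpr183, an oxysterol receptor that positions lymphocytes, was at 245 against 39.5 CPM (2.49), and Cxcr3, a receptor for interferon-induced chemokines, at 160 against 25.3 (2.45). Cd9, a tetraspanin, was at 2.17, Crtam, an adhesion molecule of activated CD8 cells, at 2.15, and Il7r, the IL-7 receptor chain of long-lived T cells, at 1.57 with 51.7% of members positive against 29.6%. Costimulatory Cd28 (0.15), Ltb (-0.01) and Icos (-0.71) did not reach 2-fold.

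Emb encodes embigin, a membrane glycoprotein that partners lactate transporters. It averaged 758 CPM in members and 83.4 CPM in the Havcr2-positive gate (3.11), and was present in 121 members (80.1%) against 22.5%. Members ran from 0 to 4217 CPM (median 522) and the comparison barcodes from 0 to 1588.5 (median 0). Cxcr4, the receptor for CXCL12, was at 177 against 28.2 CPM (2.45), and Tbc1d4, a regulator of glucose transporter traffic, at 82.0 against 10.7 (2.47). The RefSeq windows of 9 of the 12 named higher genes and of all 12 named lower genes were found and searched for CTTTGAA and CTTTGAT, the core letters that TCF and LEF proteins bind. Emb was the only match among the higher genes and Serpinb9b, a granzyme-inhibitor gene described further on, the only one among the lower genes, and both windows are shown, matching letters in capitals, because the letters occurred on either side of the comparison.
Emb, chr13:117220323-117220622, plus strand: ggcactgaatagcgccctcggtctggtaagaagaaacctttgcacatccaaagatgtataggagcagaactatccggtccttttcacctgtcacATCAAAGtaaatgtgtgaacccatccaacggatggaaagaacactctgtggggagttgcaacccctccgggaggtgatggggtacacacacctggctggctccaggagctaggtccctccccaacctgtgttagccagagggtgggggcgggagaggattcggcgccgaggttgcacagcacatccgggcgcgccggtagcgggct
Serpinb9b, chr13:33027164-33027463, plus strand: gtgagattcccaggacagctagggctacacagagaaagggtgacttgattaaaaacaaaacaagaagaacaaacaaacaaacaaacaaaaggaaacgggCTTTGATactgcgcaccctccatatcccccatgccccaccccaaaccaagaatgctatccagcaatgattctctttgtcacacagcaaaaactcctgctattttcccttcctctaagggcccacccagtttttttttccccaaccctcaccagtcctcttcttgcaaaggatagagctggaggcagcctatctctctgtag
In Emb the match begins at position 95 and is on the opposite strand, and in Serpinb9b it begins at position 100. At least 1 of the 2 motifs occurred in 8.65% of all 32851 windows and, counting any window of a gene, in 9.88% of 27025 genes, beside 1 of 9 higher and 1 of 12 lower genes. The windows of Slamf6 and Xcl1 held neither.

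Transcription factors of stem-like T cells were less uniform. Myb, required for the self-renewing exhausted pool, was present in 64 members (42.4%) and 21.0% of the Havcr2-positive gate, at 197 against 40.8 CPM (2.14). Lef1, a relative of TCF1, was at 80.6 against 24.7 CPM (1.53), though -1.03 under A0305, and Bach2, which restrains effector genes, at 60.3 against 19.6 (1.41). These were the 3 of 8 examined that passed 2-fold, with 0 lower. Foxp1 (0.70), Satb1 (0.64), Klf7 (0.58), Zeb1 (0.54) and Foxo1 (-0.34) did not. Of 16 factors of exhaustion and effector fate, 2 were higher and 4 lower (median -0.41). Ikzf2, encoding Helios, was at 245 against 63.3 CPM (1.87) and Eomes, a T-box factor, at 88.9 against 37.7 (1.14). On the lower side, Id2, an effector-cell regulator, was present in 55.0% of members and 95.9% of the Havcr2-positive gate, at 328 against 1473 CPM (-2.15). Irf8 (-1.67), Prdm1, encoding the differentiation factor BLIMP1 (-1.55), and Rbpj, the transducer of Notch (-1.11), were lower as well. Tbx21, encoding T-bet, was at -0.73, Batf at -0.48, Tox at -0.34, Nfatc1 at -0.01 and Bhlhe40 at 0.07.

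Gzmb encodes granzyme B, a protease of cytotoxic granules. It was present in 40 members (26.5%, interval 19.6 to 34.3) and in 93.3% (91.4 to 94.9) of the Havcr2-positive gate, and after thinning in 22.7% and 91.4%. Members ran from 0 to 3249 CPM with a median of 9.90, and the Havcr2-positive gate from 0 to 27632 with a median of 2365. The means were 198 and 3304 CPM (-4.03). Prf1, encoding the pore-forming perforin, was present in 30 members (19.9%) and 79.3%, at 76.0 against 620 CPM (-2.95). Gzmf had 5 counts in all members together, against 20094 in the Havcr2-positive gate (0.632 and 383 CPM of summed counts). The 5 counts lay in 5 members and none reached 5 counts, which allows a share of barcodes at that level of up to 1.99% (3 of 151). Its log2 ratio of -5.99 depends on the 5 CPM added. Gzmd had no count in any member and 4370 in the Havcr2-positive gate (0 and 83.3 CPM of summed counts). Counts were treated as reads, so a floor of 3 counts over all members sets no firm limit on the fold. Gzmc was present in 4 members (-3.84). The genes Gzmb to Gzmf are close copies, and reads may have been split between them. Nkg7, a granule membrane protein, was at 1339 against 2980 CPM (-1.15) and Serpinb9, an inhibitor of granzyme B, at -1.29, while its mouse relative Serpinb9b was present in 1 member and 13.9% of the Havcr2-positive gate (-4.57). Lamp1 (1.15) and Gzma (1.27, present in 11 members) were the 2 higher genes, but Gzma was at -0.91, -6.56 and -0.73 under hashtags A0301, A0305 and A0306 and at 2.49 in the barcodes called for none, and Ctsw (0.68), Srgn (-0.21) and Gzmk (-0.76) passed neither limit. Of the 151 members, 41 held at least 1 of Gzmb to Gzmf, while Nkg7 was present in 145, Srgn in 141 and Ctsw in 110.

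Inflammatory chemokines and cytokines followed the granzymes. Ccl3, which draws inflammatory leukocytes, averaged 38.1 CPM in members and 873 in the Havcr2-positive gate (-4.35) and was present in 14 members (9.27%) against 51.0%. Ccl4 was at 142 against 755 CPM (-2.37). Ccl5 was present in 43.0% of members against 93.5%, with members running from 0 to 20043 CPM (median 71.2) and the comparison barcodes from 0 to 79182 (median 2534), and means of 968 and 5125 CPM (-2.40). Ifng, encoding interferon gamma, was at 82.9 against 606 CPM (-2.80), Spp1, encoding osteopontin, at 31.2 against 446 (-3.64, present in 4 members), and Csf1, the macrophage growth factor, at -1.52. Ccl9, a further chemokine, was present in 4 members (-3.79). Tnf reached -0.93. The exception was Tnfsf11, encoding RANKL, a cytokine of the tumour necrosis factor family, at 122 against 18.0 CPM (2.46) and present in 33 members (21.9%) against 6.06%. It was the only gene of 9 in this group that was higher.

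**Figure D3:**
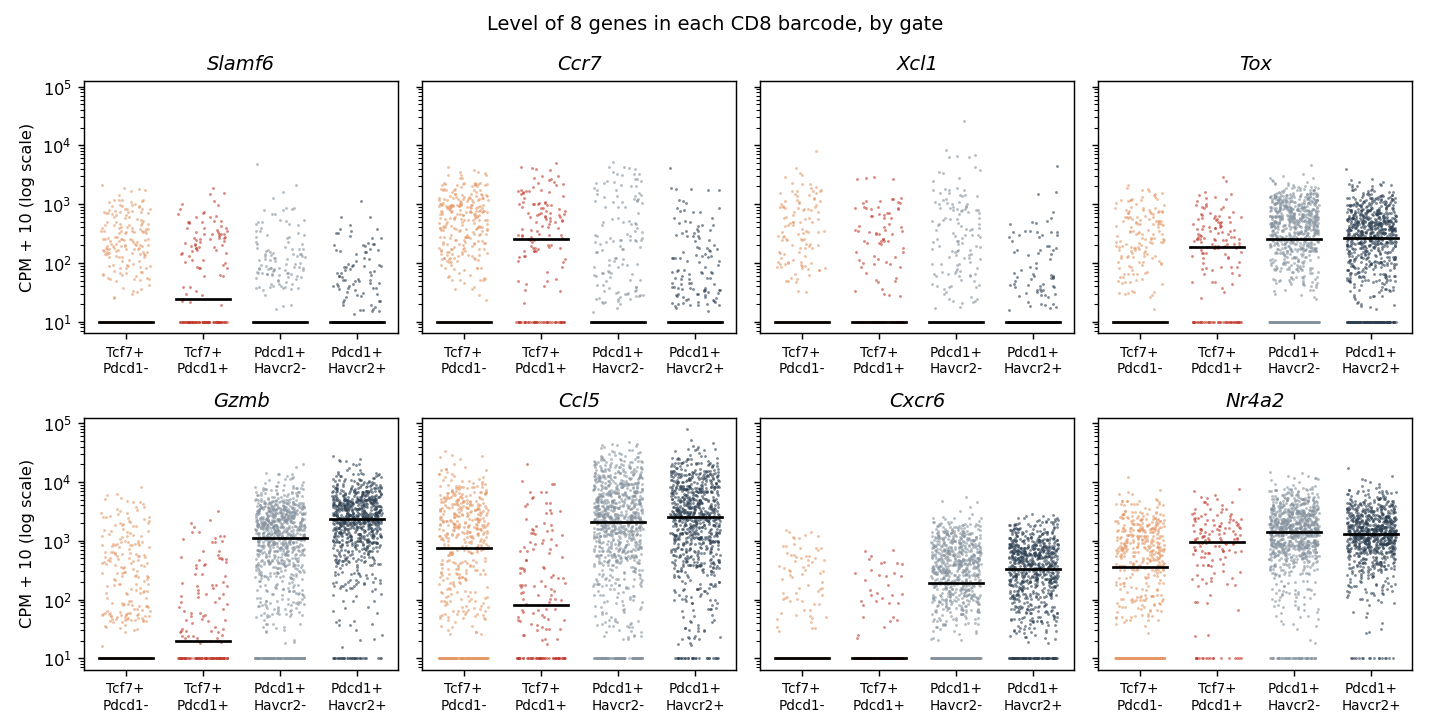
Level of 8 genes in every CD8 barcode of the 4 gates (vertical axis, CPM + 10, log scale), with 1 point a barcode and black lines at the medians. Members have medians of 247 CPM for Ccr7 and 9.90 for Gzmb, against 0 and 2365 in the Havcr2-positive gate, and the points of all gates overlap.

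Among inhibitory receptors besides the gate genes, 0 of 10 examined were higher and 3 lower. Entpd1, encoding CD39, an ectonucleotidase of terminally exhausted cells, was present in 5 members (3.31%) and 51.0% of the Havcr2-positive gate, at 7.08 against 163 CPM (-3.80). Cd38, another ectoenzyme, was at -1.52 and Lag3 at 294 against 816 CPM (-1.46), although Lag3 was still present in 57.0% of members. Ctla4 was present in 80.8% against 92.6% (-0.55), Tigit in 32.5% against 39.4% (-0.25) and Cd160 in 23.2% against 20.2% (0.56). The members therefore carried several inhibitory receptor genes besides Pdcd1. Of 9 residence and homing genes, 4 were lower and 1 higher. Cxcr6, a receptor of tissue-resident T cells, was present in 25 members (16.6%) against 76.8%, with members running from 0 to 695 CPM and the Havcr2-positive gate from 0 to 2840 (means 48.0 and 478 CPM, -3.19). Adam8, a metalloprotease, was at -3.31 and Ccr2 at -1.15, while the integrin gene Itgb1 was present in 80.1% against 59.5% (1.69). Serpine2, a protease inhibitor on no list, was at -2.93.

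The 16 genes of sugar use and low oxygen had 0 higher and 3 lower (median -0.67), namely the lactate carrier Slc16a3 (-1.44), the glucose transporter Slc2a3 (-1.14) and Bnip3 (-1.07), and Gapdh was at 1268 against 1978 CPM (-0.64). Bcl2, which protects from cell death, was higher (143 against 48.8 CPM, 1.46) and was the 1 of 14 survival genes to reach 2-fold. Dgka, which restrains diacylglycerol signalling, was higher (1.18) and Cd226, an activating receptor, lower (-1.55) among 16 costimulation and signalling genes. Klra3 (-1.87) and Klre1 (-1.25) were the lower 2 of 6 NK-type receptor genes. Among 11 interferon-stimulated genes Slfn5 (1.07) was the only one past 2-fold. All 10 ribosomal protein genes lay above 0 (0.19 to 0.57, median 0.30) and none reached 2-fold.

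Over all members, none of 22 cell cycle genes passed 2-fold (median -0.16), and Mki67, encoding Ki-67, was at 310 against 251 CPM (0.30). The values varied between hashtags. Under A0301 (20 members) 12 of the 22 were lower and 0 higher (median -1.09), and under A0305 (12 members) 4 and 0 (-0.29). Under A0306 (16 members) they were 6 and 0 (-0.79), and in the uncalled barcodes (91 members) 0 and 0 (0.083). The share of all genes past 2-fold within each subset was not computed, and these differences were not tested. Mki67 or Top2a was present in 46.4% of members (38.2 to 54.6), 57.5% (54.0 to 60.9) of the Havcr2-positive gate, 42.7% of the Pdcd1-only gate and 12.3% (9.66 to 15.3) of the Tcf7-only gate. After thinning, which came after the gates were set, the shares were 42.0%, 53.9%, 41.5% and 13.1%. Members with Mki67 or Top2a had a median of 75197 counts and those without 27201.

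**Figure D4:**
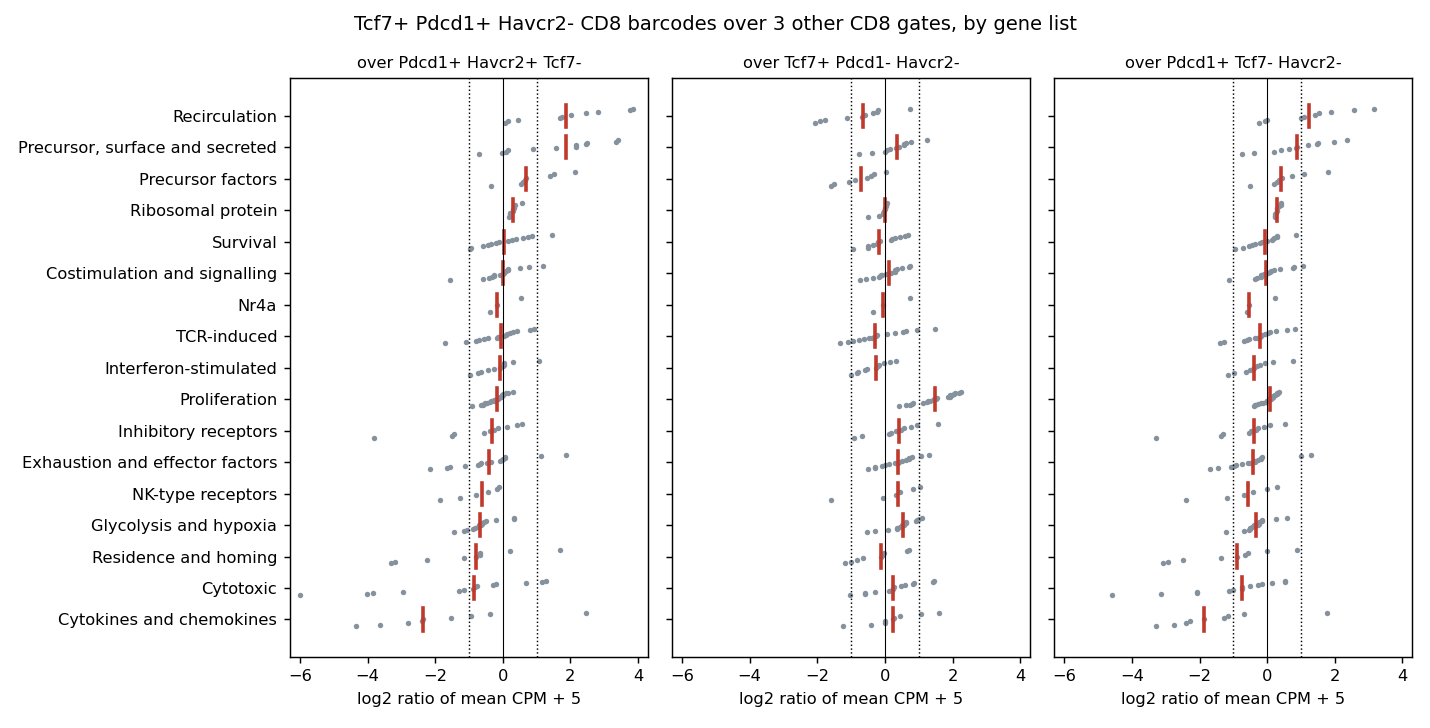
Log2 ratio of mean CPM + 5 of each examined gene (grey points, horizontal axis) in 17 gene groups, for the members over each of the other 3 gates, with the group median as a red bar and 2-fold as dotted lines. Recirculation and precursor genes lie to the right in the left and right panels, with medians of 1.88 and 1.86 against the Havcr2-positive gate, and proliferation genes lie to the right in the middle panel (median 1.48).

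Set against Tcf7-positive CD8 barcodes without Pdcd1 and Havcr2, members carried more cell cycle genes and less of the Klf2-linked quiescence genes. Of the 6481 genes, 250 were at least 2-fold higher in members (3.86%) and 88 lower (1.36%), 5.22% in all. Of 22 cell cycle genes 17 were higher and 0 lower (median 1.48). Pclaf, a partner of the replication clamp, was at 390 CPM in members against 72.1 (2.36), Ccna2, encoding cyclin A2, at 115 against 20 (2.26), Depdc1a at 2.26, Cdca3 at 2.22, Mki67 at 310 against 64.4 (2.18), Nusap1 at 2.17, Kif15 at 2.11 and Birc5, encoding survivin, at 2.06. Without the barcodes that held Mki67 or Top2a, which left 81 members and 486 others, the median of the cycle group was -0.078, with Ccna2 at -0.082 and Birc5 at -0.21. The counts past 2-fold were then 238 higher and 275 lower. Both genes belong to the cycle group, so this lower median follows in part from how the barcodes were left out. Barcodes with Mki67 or Top2a were deeper than those without, at medians of 75197 and 27201 counts in members. In the Tcf7-only gate the medians were 45088.5 and 20740. A deep barcode reaches 5 counts of Pdcd1 more easily, and thinning came after the gates were set. The part of depth in the cell cycle difference was not tested.

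Genes that were lower than in the Tcf7-only gate included Klf2 (76.5 against 339 CPM, -2.08), S1pr1 (71.8 against 286, -1.92), Lef1 (80.6 against 255, -1.60), Satb1, a chromatin organiser of T cells (219 against 633, -1.51) and Ccl5 (968 against 2295, -1.24). Ccl5 was present in 63.4% of the Tcf7-only gate and 43.0% of members. Without the barcodes that held Mki67 or Top2a, Ccl5 was at -0.69, under 2-fold. Ccr7 went the other way, at 646 against 383 CPM (0.75), and was present in 64.2% of members against 36.3%. Of 10 recirculation genes 4 were lower and 0 higher (median -0.64), and of 8 precursor factors 3 were lower and 0 higher (median -0.70). Lag3 (1.57), Tnfsf11 (1.61), Tnfrsf4, encoding OX40 (1.49), Prf1 (1.44), Tox (1.30), Cd200 (1.24) and Irf8 (1.07) were higher. Prf1 was at -0.18 in the barcodes without markers of other cell types (32 members). Gzmb did not reach 2-fold (198 against 302.6 CPM, -0.60), and its share of 26.5% was close to the 20.9% (17.6 to 24.6) of the Tcf7-only gate.

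Set against Pdcd1-positive CD8 barcodes with neither Tcf7 nor Havcr2, members again carried more recirculation and precursor surface genes and fewer cytotoxic genes, cytokines and chemokines, with smaller medians for these 4 groups. These 2 comparisons share the members, so their likeness is not independent support. Of the 6481 genes 77 were higher (1.19%) and 163 lower (2.52%), 3.7% in all. Ccr7 (646 against 105 CPM, 2.57), Slamf6 (173 against 29.9, 2.36), Cd9 (79.1 against 16.4, 1.97) and Klf3 (42.0 against 7.61, 1.90) were among the highest ratios by the naming rule. Ccl3 (38.1 against 415 CPM, -3.28), Entpd1 (7.08 against 112, -3.28), Gzmb (198 against 1789, -3.14), Adam8 (-3.07) and Cxcr6 (48.0 against 403, -2.94) had the lowest. Of the recirculation genes 6 of 10 were higher and 0 lower (median 1.25), of the precursor surface genes 5 of 12 and 0 (median 0.87), of the cytotoxic genes 0 and 6 of 14 (median -0.75), and of the cytokines and chemokines 1 and 7 of 9 (median -1.86). Xcl1, with 139 CPM in the Pdcd1-only gate, was at 0.88 and did not reach 2-fold there, although it was present in 37.7% of members and 9.40% of that gate. A barcode of the Pdcd1-only gate reached 26036 CPM of Xcl1. The cell cycle genes were level (median 0.10, 0 of 22 past 2-fold).

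Of the Nr4a genes, Nr4a2 was present in 123 members, Nr4a3 in 90 and Nr4a1 in 68. At least 1 of Nr4a1, Nr4a2 and Nr4a3 was present in 90.1% of members (84.1 to 94.3), 96.6% of the Havcr2-positive gate, 93.3% of the Pdcd1-only gate and 70.9% of the Tcf7-only gate. These shares are without thinning, and the Tcf7-only gate was less deep (median of 21732.5 counts against 46650 in members). Nr4a1 averaged 195 CPM in members, 218 in the Havcr2-positive gate, 249 in the Tcf7-only gate and 298 in the Pdcd1-only gate. Nr4a2 averaged 1364, 1759, 823 and 1962 CPM in the same order, with members running from 0 to 7507 CPM (median 958). Nr4a3 averaged 313.5, 216, 325 and 264 CPM, with members from 0 to 2556 (median 159). None of the 3 passed 2-fold in any of the 3 comparisons (-0.16, -0.37 and 0.53 against the Havcr2-positive gate). Whether KO cells lack these reads cannot be checked here, since the genotype of each barcode is unknown. Of 16 examined genes induced by T cell receptor signalling, 0 were higher and 2 lower than in the Havcr2-positive gate, namely Tnfrsf9, encoding the costimulatory receptor 4-1BB (181 against 605 CPM, -1.71), and Egr1, an early growth response factor (141 against 307.5, -1.10). Junb (-0.18), Nfkbia (0.22), Dusp2 (0.11) and Cd69 (0.80) did not reach 2-fold.

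The members were not alike in the markers that the rule did not use. Of 61 members with Slamf6, 24 (39.3%) held Xcl1, and of 90 without it 33 (36.7%), so these 2 markers did not go together. Tox was present in 75.4% of 57 members with Xcl1 and 52.1% of 94 without, but the former were deeper (medians of 59004 and 35888 counts), and after thinning the shares were 57.9% and 43.0%. Klf2 was present in 2 of the 57 with Xcl1 and in 21 of the 94 without (22.3%), and S1pr1 in 5 and 20, which is against the order of depth. Ccl5 was likewise found in 29.8% and 51.1%. Gzmb marked 40 members, of which 67.5% held Ccl5 and 37.5% Cxcr6, against 34.2% and 9.01% of the 111 members without Gzmb. After thinning these were 59.0% and 20.5% against 34.2% and 6.31%. Members without Gzmb held Ccr7 in 69.4%, those with it in 50%. Among 70 members with Mki67 or Top2a, Gzmb was present in 40.0%, Tnfrsf9 in 64.3% and Ccr7 in 75.7%, and among the other 81 in 14.8%, 27.2% and 54.3%. After thinning, Gzmb was at 31.4% and 15.0%, Tnfrsf9 at 47.1% and 25% and Ccr7 at 58.6% and 55.0%. The splits were chosen for description, were not tested, and rest on as few as 40 barcodes.

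Genes on marker lists of other cell types were present in many members at low level, and their part in the results was not tested. Some are not particular to another cell type, such as Eomes, counted above among the factors of exhaustion and effector fate. The shares below therefore do not measure stray counts alone. T cell genes such as Trac were present in 94.0% of members and Cd3e in 82.1%. At least 1 of 10 macrophage genes was present in 55.6% of members, mostly Ctss (71 members), and in 51.0% of the Havcr2-positive gate, and their summed level averaged 332 CPM (0 to 4040) and 352 CPM (0 to 40913), against 29700 in macrophage barcodes. At least 1 of 8 melanoma genes was present in 40.4% of members and 47.3% of the Havcr2-positive gate, at 242 (0 to 1903) and 228 CPM (0 to 2088). In the B cell list, Ighm was present in 35 members (23.2%) against 5.45%, while Ms4a1, Ighd and Pax5 were at 0 in all members. The summed B cell list averaged 69.5 CPM (0 to 641) in members and 22.2 (0 to 1153) in the Havcr2-positive gate. Pecam1 was the only gene of the 9 stromal and vessel genes present, in 20 members, with Col1a2, Col3a1, Pdgfrb, Cdh5 and Kdr at 0, and the list averaged 42.9 CPM (0 to 1174) in members and 11.3 (0 to 583) in the Havcr2-positive gate. At least 1 of 6 NK cell genes was present in 37.7% of members, mostly Eomes (34 members), and in 39.2% of the Havcr2-positive gate. Their summed level averaged 310 (0 to 8930) and 223 CPM (0 to 10996). Ncr1 and Klrb1c of that list were at 0 in members. None of the 4 gamma delta T cell genes found in the table was present. Neutrophil genes reached 34.8 CPM (0 to 801) in members and 71.5 (0 to 35461) in the Havcr2-positive gate, dendritic cell genes 91.9 (0 to 5161) and 130 (0 to 10782), and genes of CD4 or regulatory T cells 419 (0 to 4127) and 348 (0 to 4102). The last of these lists includes Tnfsf11, described above as higher in members. Leaving out barcodes with any gene of the macrophage (Ctss included), B cell, stromal or melanoma lists left 32 members. In these, all 24 named genes of the Havcr2 comparison kept their direction and stayed past 2-fold. Those genes were picked for their size over barcodes that include the 32, so this follows in part from the choice. Over all 6481 genes, 1700 passed 2-fold in this subset, against 343 with all barcodes. No doublet caller was run, and whether members include doublets was not tested. Gzmb was present in 26.5% of members and 77.4% of the Pdcd1-only gate. Ccr7 was present in 64.2% of members, 36.3% of the Tcf7-only gate and 8.57% of the Pdcd1-only gate.

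Members were called under all 6 hashtags, though a call can be wrong and some hashtags hold few. Of 151 members 60 (39.7%) could be called for 1 hashtag, with 20 under A0301, 2 under A0302, 6 under A0303, 4 under A0304, 12 under A0305 and 16 under A0306. As a share of the Pdcd1-positive CD8 barcodes of the same hashtag, these were 8.44% (5.23 to 12.7) for A0301, 5.71% (0.700 to 19.2) for A0302, 9.23% (3.46 to 19) for A0303, 3.13% (0.858 to 7.81) for A0304, 12% (6.36 to 20) for A0305 and 12.2% (7.15 to 19.1) for A0306. Uncalled barcodes held 7.23% (5.86 to 8.81). The intervals of the lowest and the highest hashtag overlapped, and no hashtag can be named WT or KO. Hashtags with at least 10 members, and the uncalled barcodes, were then compared with Havcr2-positive barcodes of their own. The 24 named genes, chosen for their size over the same barcodes, had the same sign in all 4 subsets. Of 65 listed or named genes past 2-fold, 55 had the same sign and 10 did not, namely Csf1, Gzma, Klf3, Klre1, Klri2, Lef1, Rbpj, Rgs10, Slc2a3 and Slfn5. The 65 were also chosen over the same pooled barcodes, in which the uncalled held 91 of the 151 members. Like signs therefore follow in part from the choice, and the share over all genes was not computed. Slamf6 was at 4.53 under A0301, 4.88 under A0305, 4.93 under A0306 and 3.16 in the uncalled. Ccr7 was at 3.79, 2.96, 3.29 and 3.77, and Gzmb at -5.55, -5.25, -4.10 and -3.61. Xcl1 varied most among these, at 2.41, 1.40, 6.26 and 3.30, and was present in 4 of 20, 4 of 12 and 5 of 16 called members. Nr4a3 lay above 0 in the 4 subsets (0.50, 0.94, 1.46 and 0.12) and Nr4a2 below it (-0.44, -0.77, -0.11 and -0.45), whereas Nr4a1 did not keep a sign (-0.28, -0.58, -0.98 and 0.07).

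**Figure D5:**
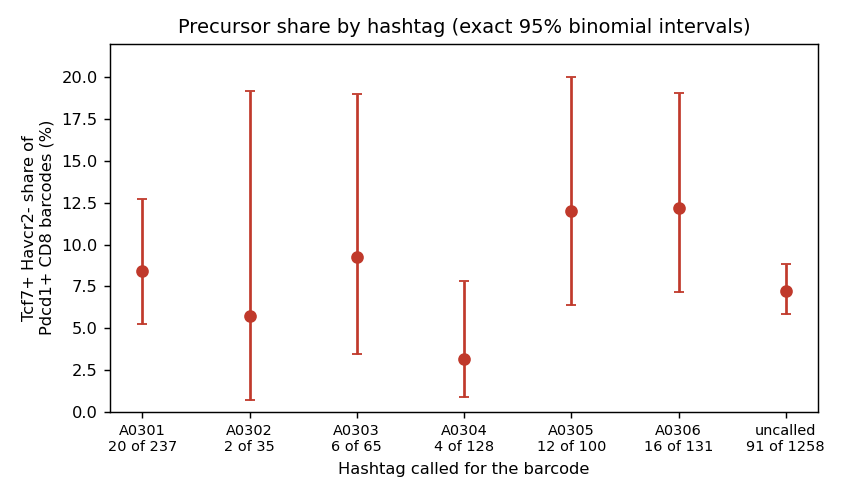
Share of Pdcd1-positive CD8 barcodes that are members (vertical axis, percent) for each called hashtag and for uncalled barcodes (horizontal axis, with counts), with exact 95% binomial intervals. The shares run from 3.13% under A0304 to 12.2% under A0306, and all intervals overlap.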

How the data were processed

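Cells were captured on a BD Rhapsody array and amplified by TAS-Seq, per the labels' protocols. The submitters' processing notes name cutadapt 2.10, Bowtie2 2.3.4.1 and 2.4.2, R 3.5.3 and the mouse build GRCm38. The deposited values are counts per gene and barcode from the authors. Read 1 carries a molecular identifier, per the labels, but no source used here says whether counts were collapsed by it. The median non-zero count was 7 and 56.1% exceeded 5, so counts were treated as reads.

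Of 12016 barcodes with 629041564 counts over 27635 genes, 279 fell under the gene minimum of 500 and 675 over the mitochondrial limit of 25%. Gates, per-barcode CPM, log2 ratios with 5 CPM added, and thinning to 10000 counts were computed in Python 3.11.15 with numpy 2.4.6, pandas 2.3.3, scipy 1.17.1 and matplotlib 3.10.9. The ratio and the hashtag calls were tested on simulated data. A hashtag was called where its log likelihood gain was at least 3 over both the background and the next hashtag. No doublet caller was run.

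Named genes are the 12, 8 and 5 highest and lowest ratios in the comparisons with the Havcr2-positive, Tcf7-only and Pdcd1-only gates, among genes past 2-fold with and without thinning whose shares differed by at least 10 percentage points. Mitochondrial genes, receptor and immunoglobulin V segments and unnamed gene models were left out, and genes of 27 lists and the 5 marker genes were added. The members and lists were chosen with earlier results of these data known. Alternatives were the presence limit, summed counts, thinning, the CPM added, the low-value filter, and leaving out dividing cells, cells with markers of other types, the deepest 5% and each hashtag. Results for some genes are not reported here.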

Additional observations from a re-analysis of the deposited data

How the results depend on the processing

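With Tcf7, Pdcd1 and Havcr2 called at 1 count there were 291 members (11.6% of Pdcd1-positive CD8 barcodes), and at 10 counts 96 (6.32%). Against the Tcf7-only gate, Gzmf was at -1.04 and Adam8 at -1.20, and at 1 count they were at 1.15 and 0.49. Genes past 2-fold against the Havcr2-positive, Tcf7-only and Pdcd1-only gates were 343, 338 and 240 as reported. They were 178, 109 and 100 with 20 CPM added. With no filter they were 737 (421 higher, 316 lower), 803 (463 and 340) and 568 (281 and 287), over more genes. Without cells holding Mki67 or Top2a (81 members left) they were 822, 513 (238 and 275) and 627, and against the Tcf7-only gate the cell cycle median was -0.078, Ccna2 -0.082 and Birc5 -0.21. Without cells holding markers of other types (32 members left) they were 1700 (565 and 1135), 1573 (672 and 901) and 1573 (448 and 1125), Prf1 was at -0.18 against the Tcf7-only gate, and fewer cells were averaged. Leaving out each hashtag in turn gave 343 to 376, 339 to 422 and 242 to 270. The 24 named genes of the Havcr2 comparison, picked for their size and for passing thinning, stayed past 2-fold in the same direction under the 16 alternatives. For thinning this was set by the choice of genes, and the low-value filter cannot change the ratio of a gene. Except where stated, the cause was not tested. No paired test was run, and the labels give no replicate numbers. Members were set beside Havcr2-positive barcodes of the same hashtag for A0301, A0305 and A0306 only. The other hashtags held under 10 members each. Values within a hashtag are in the report. Counting depth limits the shares of low genes.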
